A study of Mus musculus with 14 samples.

Results

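Chromatin marks were read at 5 mouse genes that brake the cell cycle or answer to DNA damage: Cdkn2a, Cdkn2b, Cdkn2c, Cdkn1a and Trp53. Each gene was taken as a fixed window of genome build mm9, and every region that the authors called and that shared at least 1 bp with a window was counted. The windows lay on chromosome 4 from 88.90 to 88.98 Mb for Cdkn2a with Cdkn2b, on chromosome 4 from 109.31 to 109.36 Mb for Cdkn2c, on chromosome 17 from 29.21 to 29.25 Mb for Cdkn1a and on chromosome 11 from 69.38 to 69.42 Mb for Trp53. They held 77 of the 201448 regions in 11 lists. Within a window the regions were taken by position and not by score, but the genes themselves were chosen with earlier results of these data known.

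The libraries were chromatin immunoprecipitations followed by sequencing (ChIP-seq), which recover the DNA that a protein or histone mark sits on. Tumour cells labelled Cas9, of genotype p53-/-;p18-/-, were compared with Ezh2 knockout tumour cells, of genotype p53-/-;p18-/- ;Ezh2-/-, for H3K27me3, H3K27ac and H3K4me3. The series' design text describes tumorspheres that overexpress Myc, and names Cas9 vectors as the means of knocking out Ezh2. The other cells were neurospheres, of genotype p53-/-;p18-/-. Chromatin of those labelled Cas9 and those labelled Suz12F2 was precipitated with an antibody to Gfi1, and that of neurospheres labelled U6, Suz12F1 or Suz12F2 with one to Cas9. By label every group thus lacked p53 and p18, the products of Trp53 and Cdkn2c. The growth protocol, which is the same for all samples, describes retrovirally infected tumour cells that were sorted for RFP and GFP, expanded and grafted into the cortex of immunodeficient nude mice. The labels give neither the deleted exons nor whether a line was 1 clone, and the design text also mentions a WT mixed background. There was 1 library per group, so no test across samples was possible, no value carries a replicate error and the depth of each library is unknown. Over the whole genome, the length in H3K27me3 islands was 71.4 Mb for Cas9 and 18.6 Mb for knockout tumour cells.

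Cdkn2a and Cdkn2b lie side by side and encode inhibitors of the cyclin D kinases Cdk4 and Cdk6. Cdkn2a has a pair of starts: the upstream one gives p19Arf, which restrains the p53 antagonist Mdm2, and the downstream one gives p16Ink4a. Cdkn2b encodes p15Ink4b and Cdkn2c encodes p18Ink4c, both kinase inhibitors of the same family. Cdkn1a encodes p21, an inhibitor of cyclin-dependent kinases and a classical target gene of p53. In many cell types Polycomb repressive complex 2, whose catalytic subunit is Ezh2, holds the Cdkn2a and Cdkn2b genes silent by methylating lysine 27 of histone H3. H3K4me3 marks promoters, and H3K27ac marks promoters and enhancers in use.

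Bases before the starts of Cdkn2a, Cdkn2b and Cdkn1a are shown because the H3K4me3 peaks described further on are set beside these starts, which differ widely in CpG content. They come from RefSeq, build GRCm38.p6, and each run holds the 250 bases before a start, 5′ to 3′ on the strand of the gene. Capitals mark the GC box GGGCGG, where the letters read that way on the strand shown or on the other, and matches to the p53 consensus decamer. All 5 genes had an entry, with 8 starts in all, numbered in the direction of transcription.
Cdkn2a start 1, chr4:89294620-89294869, - strand: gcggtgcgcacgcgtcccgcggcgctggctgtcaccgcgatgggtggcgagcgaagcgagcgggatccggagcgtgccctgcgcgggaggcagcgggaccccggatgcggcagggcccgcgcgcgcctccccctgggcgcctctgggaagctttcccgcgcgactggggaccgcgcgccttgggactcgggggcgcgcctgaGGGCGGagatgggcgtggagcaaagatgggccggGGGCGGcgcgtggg
Cdkn2a start 2, chr4:89282193-89282442, - strand: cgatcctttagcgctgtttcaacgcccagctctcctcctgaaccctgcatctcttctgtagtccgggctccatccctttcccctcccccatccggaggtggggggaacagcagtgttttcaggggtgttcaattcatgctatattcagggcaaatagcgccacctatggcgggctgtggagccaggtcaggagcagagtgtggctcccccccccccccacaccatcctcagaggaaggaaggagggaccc
Cdkn2b start 1, chr4:89311033-89311282, - strand: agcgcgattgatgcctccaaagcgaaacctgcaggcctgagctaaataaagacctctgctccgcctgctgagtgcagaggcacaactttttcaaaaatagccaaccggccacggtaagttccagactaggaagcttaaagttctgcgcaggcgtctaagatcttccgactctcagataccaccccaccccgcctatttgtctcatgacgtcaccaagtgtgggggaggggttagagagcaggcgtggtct
Cdkn1a start 1, chr17:29090729-29090978, + strand: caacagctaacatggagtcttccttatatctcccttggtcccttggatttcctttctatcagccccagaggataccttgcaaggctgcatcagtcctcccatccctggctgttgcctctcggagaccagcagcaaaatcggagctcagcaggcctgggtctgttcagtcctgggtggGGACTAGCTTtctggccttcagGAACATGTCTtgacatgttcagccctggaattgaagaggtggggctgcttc
Cdkn1a start 2, chr17:29093519-29093768, + strand: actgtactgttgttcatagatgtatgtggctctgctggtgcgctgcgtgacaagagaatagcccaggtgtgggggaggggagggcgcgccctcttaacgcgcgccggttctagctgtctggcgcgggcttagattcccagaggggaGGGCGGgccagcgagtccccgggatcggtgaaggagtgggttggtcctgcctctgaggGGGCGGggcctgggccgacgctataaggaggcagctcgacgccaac

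The base composition of these starts differed widely. Before Cdkn2a start 1, the Arf start, 78.4% of bases were G or C and the ratio of observed to expected CpG was 1.08, above 97.2% of the 32841 promoters in the table. Before Cdkn2a start 2, the p16 start, the ratio was 0.316, below the median of 0.374. Cdkn2b stood at 0.67, and Cdkn2c at 0.782 and 0.525 for its starts 1 and 2. Cdkn1a start 1 had the lowest ratio of the 8, 0.11, and Cdkn1a start 2 had 0.771. Trp53 stood at 0.524. The GC box was found before 3 of the 8 starts, Cdkn2a start 1, Cdkn2c start 1 and Cdkn1a start 2, against 32.7% of all promoters.

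**Figure D1:**
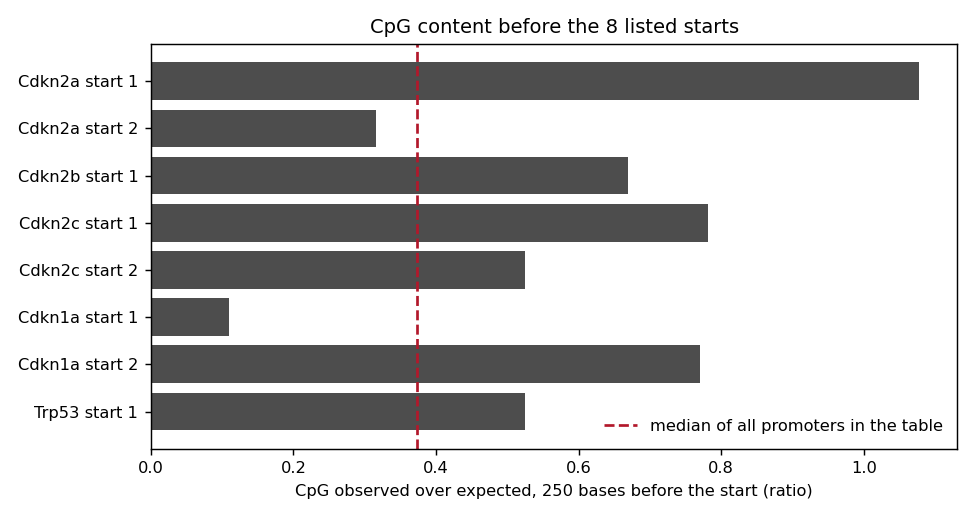
Ratio of observed to expected CpG (x axis) in the 250 bases before each of the 8 listed starts (bars), with the median of all promoters in the RefSeq table, 0.374, as a dashed line. Cdkn2a start 1 has the highest ratio, 1.08, and Cdkn1a start 1 the lowest, 0.11.

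The p53 consensus decamer was found before 2 of the 8 starts, against 7.13% of all promoters. Cdkn1a start 1 held GGACTAGCTT and GAACATGTCT, whose first bases lay 73 and 51 bases before the start. Directly after GAACATGTCT come the letters tgacatgttc, which miss the decamer at 1 letter and so were not counted or capitalised. Which decamers pair into a p53 site was not analysed. Trp53 held GGACTTGCCC, 75 bases before its start. The E-box CACGTG, a motif that Myc can bind, was found before 0 of the 8 starts, against 6.02% of promoters. The letters AATC, the core of the Gfi1 motif, were found before 5 of the 8, against 69.0% of promoters. The CCAAT box was found before 1 start, against 33.9%. The letters TATAAA of the TATA box were also found before 1, the Trp53 start, against 12.4%. There they read on the other strand, at the end of the run farthest from the start. The cell cycle homology region, written TTTGAA, was found before 1 as well, against 16.0%. Both strands were searched in each case. A match describes letters and is no evidence of binding.

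H3K27me3 was not called in the Cdkn2a/Cdkn2b, Cdkn2c or Cdkn1a window in either kind of tumour cell. In Cas9 cells the nearest islands to the Cdkn2a/Cdkn2b window ended 314 kb before it and began 373.6 kb after it. The corresponding gaps were 756.8 and 286 kb at Cdkn2c and 191.4 and 122 kb at Cdkn1a. In the knockout they were 5112 and 1413 kb at Cdkn2a/Cdkn2b, 3484 and 292.2 kb at Cdkn2c, and 395.8 and 304.2 kb at Cdkn1a. A window with H3K4me3 and without H3K27me3 was the more frequent state in Cas9 cells: it was found in 60.9% of 7617 windows of 80 kb that held H3K4me3, in 67.6% of 8787 windows of 50 kb and in 70.4% of 9244 windows of 40 kb. These windows were laid end to end along the chromosomes. The share without H3K27me3 of the knockout was not computed, so the empty knockout windows have no background beside them. Knockout islands covered 18.6 Mb in all, against 71.4 Mb in Cas9 cells. The authors numbered the regions of the 6 tumour lists, and 0 numbers were absent between the neighbours flanking each window.

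The Trp53 window held 1 H3K27me3 island in Cas9 cells, at its edge, on chromosome 11 from 69417601 to 69422800. The island measured 5200 bp, of which 2400 bp lay inside the window, and its score of 59 ranked 6168 of 14107. No knockout island overlapped it, while 11.9% of all Cas9 islands were overlapped by one. The call ended in Cas9 cells too, with 0 islands left, when the Cas9 list was trimmed by score to the 5312 islands of the knockout list, and when at least 50% of an island had to lie inside the window. The nearest knockout islands lay 406.2 kb before and 225.8 kb after the window. The neighbours of Trp53 by RefSeq gene order are Wrap53 and Efnb3 on one side and Atp1b2 and Shbg on the other. Which of them the island covers was not analysed here, since no annotation of build mm9 was used.

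**Figure D2:**
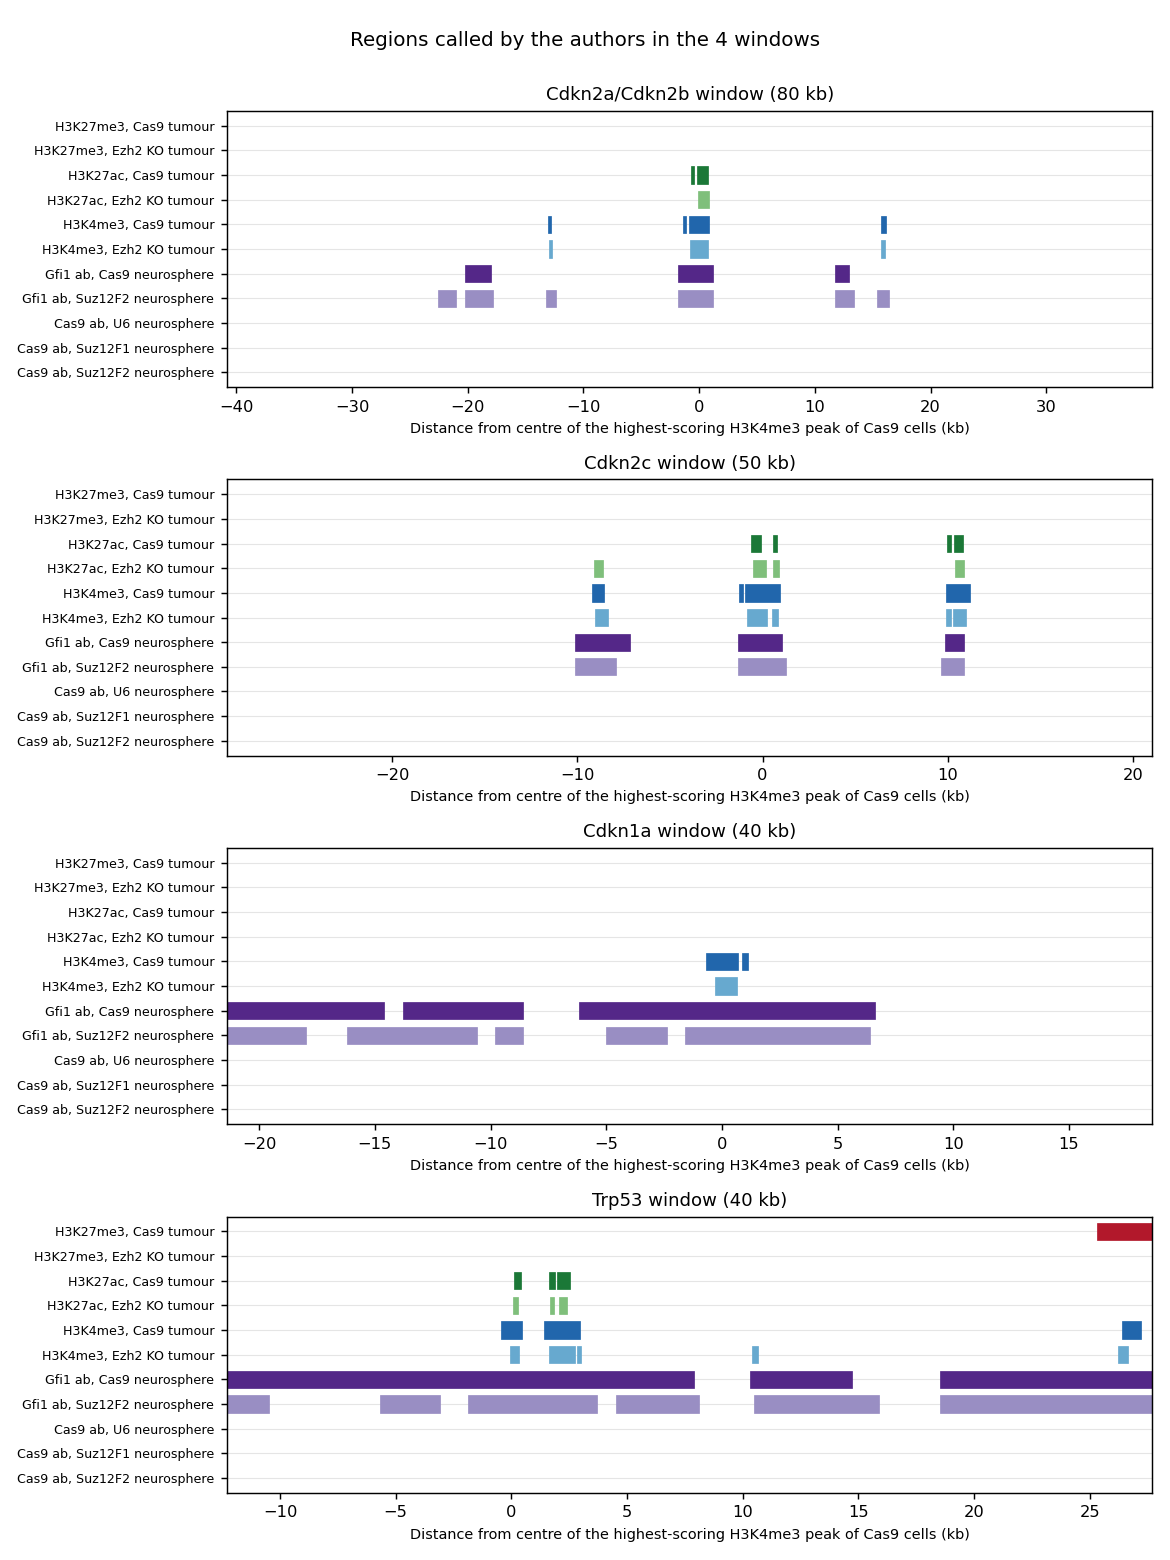
Regions called in each of the 11 lists (rows) in the 4 windows (panels), by distance in kb from the centre of the highest-scoring H3K4me3 peak of Cas9 cells, with regions clipped at the window edges. H3K27me3 appears in the Trp53 window of Cas9 cells alone, and the rows of the Cas9 antibody are empty.

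H3K4me3 was called in all 4 windows in both kinds of tumour cell. The share of all windows of these sizes that hold H3K4me3 was not computed, so this count has no background beside it. To compare lengths, tumour H3K4me3 and H3K27ac peaks at most 500 bp apart were joined into sites, which gave 11 sites in the windows and 12326 in the series. Sites are numbered within a window by rising position. Of the 13 H3K4me3 peaks of Cas9 cells, 10 overlapped a knockout peak, against 85.4% over the whole list, and of the 14 knockout peaks 13 overlapped a Cas9 peak, against 90.2%.

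The Cdkn2a/Cdkn2b window held 3 H3K4me3 sites, of which the middle one was long and the outer ones short. Site 1 ran from 88927769 to 88928072, and its H3K4me3 length was 256 bp in Cas9 cells and 245 bp in the knockout. Site 2 ran from 88939449 to 88941696, with 1915 bp in Cas9 cells and 1609 bp in the knockout. Site 3 ran from 88956565 to 88956935, with 371 and 268 bp. The longest peak of site 2 in Cas9 cells, 1676 bp, was longer than 97.0% of its list, and the single peaks of sites 1 and 3 were longer than 14.6% and 27.4%. All 3 sites were thus called with and without Ezh2, and the middle site stood out by length in both kinds of cell.

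Scores of the authors rank peaks within a list and were not compared across lists. In Cas9 cells the highest peak of site 2 scored 35, above 65.5% of the list, against 17 and 13 at sites 1 and 3, above 28.0% and 14.2%. In the knockout the 3 sites scored 9, 19 and 16, above 0.534%, 39.9% and 29.3% of that list. Site 1 thus lay near the bottom of the knockout list.

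The spacing of these peaks was set beside that of the starts, each within its own build. The centres of the highest Cas9 peaks of sites 1 and 2 were 12.9 kb apart in mm9, and the Cdkn2a starts are 12.4 kb apart in GRCm38.p6. Between sites 2 and 3 the distance was 15.9 kb, and between Cdkn2a start 1 and the Cdkn2b start it is 16.4 kb. By order and spacing, site 2 would fall at the Arf start, site 1 near the p16 start and site 3 near the Cdkn2b start, but no coordinate was carried between builds and this placement was not tested. Among the bases shown above, the start that would pair with the long site 2 is the one richest in CpG.

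H3K27ac was called at site 2 of this window alone. The Cas9 list had 2 peaks there, from 88940118 to 88940386 with a score of 13.32 and from 88940669 to 88941557 with a score of 19.14. In the knockout there was 1, from 88940716 to 88941696, with a score of 14.62 that ranked 7334 of 10112. The shorter Cas9 peak had no partner in the knockout. The acetylated length was 1158 bp in Cas9 cells and 981 bp in the knockout. The peaks near the putative p16 and p15 starts carried H3K4me3 without H3K27ac in both kinds of cell, and without H3K27me3.

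The Cdkn2c window also held 3 sites, although the cells are p18-/- by label. Site 1 ran from 109329707 to 109330564, site 2 from 109337685 to 109339899 and site 3 from 109348825 to 109350117. H3K4me3 covered 676 bp of site 1 in Cas9 cells and 672 bp in the knockout. At site 2 the lengths were 2109 and 1386 bp, and at site 3 1254 and 940 bp. The peak at site 2 in Cas9 cells scored 54, rank 988 of 14363, and was the highest-scoring H3K4me3 peak of all 4 windows in that list. In the knockout site 2 was called as 2 peaks, from 109338090 to 109339154 and from 109339454 to 109339774, and its highest score of 39 ranked 1451 of 14417. H3K4me3 peaks in this window do not test the label, since the deleted part of the gene is not given.

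Neighbours in gene order are 9630013D21Rik on one side of Cdkn2c and Faf1, which encodes a Fas-associated factor, on the other. The centres of the highest Cas9 peaks of sites 2 and 3 were 10.6 kb apart, and the starts of Cdkn2c and Faf1 are 9.87 kb apart in GRCm38.p6. Site 3 may thus belong to Faf1, which was not tested.

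In the Cdkn2c window H3K27ac was called at site 2 and site 3 in both kinds of cell. At site 1 the Cas9 list had 0 peaks and the knockout list had 1, from 109329828 to 109330334. That peak scored 12.19 and ranked 8879 of 10112, so it lies below the 7951 best peaks that would match the length of the Cas9 list. At site 2 the acetylated length was 804 bp in Cas9 cells and 1030 bp in the knockout, each in 2 peaks. At site 3 it was 695 and 468 bp, and the Cas9 peak from 109348893 to 109349112 had no partner in the knockout.

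The Cdkn1a window held H3K4me3 and no H3K27ac in either kind of cell. In Cas9 cells H3K4me3 was called from 29230697 to 29232094 with a score of 25 and from 29232259 to 29232517 with a score of 19. These stood above 46.3% and 33.3% of the Cas9 list. In the knockout there was 1 peak, from 29231073 to 29232025, with a score of 17, above 33.1% of the knockout list. The second Cas9 peak had no partner. The covered length was 1657 bp in Cas9 cells and 953 bp in the knockout. Windows of this size with H3K4me3 and without H3K27ac of either cell made up 21.4% of 9244, and the share was 20.7% for windows of 50 kb and 18.6% for windows of 80 kb. The nearest H3K27ac peaks lay 40.0 kb before and 150.9 kb after the window in both lists. The whole site spans 1.82 kb, less than the 2.79 kb between the Cdkn1a starts, so it can hold at most 1 of them. In gene order Cdkn1a lies between Trp53cor1, which gives a p53-induced non-coding RNA, and Rab44.

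The Trp53 window held 4 sites, although the cells are p53-/- by label. Sites are named by their window, and whether they belong to Trp53 or to a neighbour such as Wrap53 was not tested. Nor do the peaks test the label, since the deleted part of the gene is not given. Site 1 ran from 69391846 to 69392738 and carried 893 bp of H3K4me3 in Cas9 cells and 407 bp in the knockout. Site 2 ran from 69393705 to 69395318, with 1553 and 1296 bp. Both were acetylated in both kinds of cell, over 309 and 221 bp at site 1 and over 858 and 523 bp at site 2. The acetylation was weakly ranked, since the 6 H3K27ac peaks had scores from 10.15 to 14.98 and none stood above more than 25.3% of its list. Both knockout peaks of site 2, ranked 9884 and 9349 of 10112, lie below the 7951 best peaks, so with lists of equal number site 2 was acetylated in Cas9 cells alone.

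Site 3 of the Trp53 window, from 69402687 to 69402941, was called in the knockout alone. It was a single H3K4me3 peak of 255 bp with a score of 12, above 11.1% of its list, and carried no H3K27ac. Of 12013 sites with H3K4me3 in either kind of cell, 6.81% were called in the knockout alone. No H3K27me3 island of Cas9 cells covered it.

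Site 4, from 69418506 to 69419490, lay wholly inside the H3K27me3 island of Cas9 cells described above. It was the only one of the 13 Cas9 H3K4me3 peaks in the windows to overlap H3K27me3, against 12.5% of all such peaks. Its H3K4me3 covered 798 bp in Cas9 cells and 430 bp in the knockout. The scores of 12 and 10 stood above 10.2% and 2.83% of their own lists. H3K27ac was called there in neither. The H3K27me3 island there is below the equal-number limit of its list. That limit drops the island whatever the knockout list holds, so it does not test the absence at this site. Whether the knockout list is shorter through less H3K27me3 or through depth was not tested.

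H3K4me3 was shorter in the knockout at all 10 sites called in both kinds of cell, while 70.8% of 10388 such sites in the series were shorter. The median ratio of knockout to Cas9 length was 0.736 over the 10 sites and 0.885 over the series, whose quartiles were 0.736 and 1.03. With peaks joined within 500 bp, the lowest ratios were 0.456 at Trp53 site 1, 0.539 at Trp53 site 4 and 0.575 at the Cdkn1a site. Of the sites in the series 3.78%, 7.04% and 9.44% had lower ratios. Cdkn2c site 2 stood at 0.657, site 3 of the Cdkn2a/Cdkn2b window at 0.722, and Cdkn2c site 3 at 0.75. The highest were 0.994 at Cdkn2c site 1 and 0.957 at site 1 of the Cdkn2a/Cdkn2b window, both near equality. With peaks joined within 1 kb, Trp53 sites 1 and 2 became 1 site with a ratio of 0.696, and Trp53 site 4 had the lowest ratio, 0.539. The ratios of the windows thus ran from 0.456 to 0.994 at the shorter joining distance and from 0.539 to 0.994 at the longer one, and 1 library per group gives no error for any ratio.

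**Figure D3:**
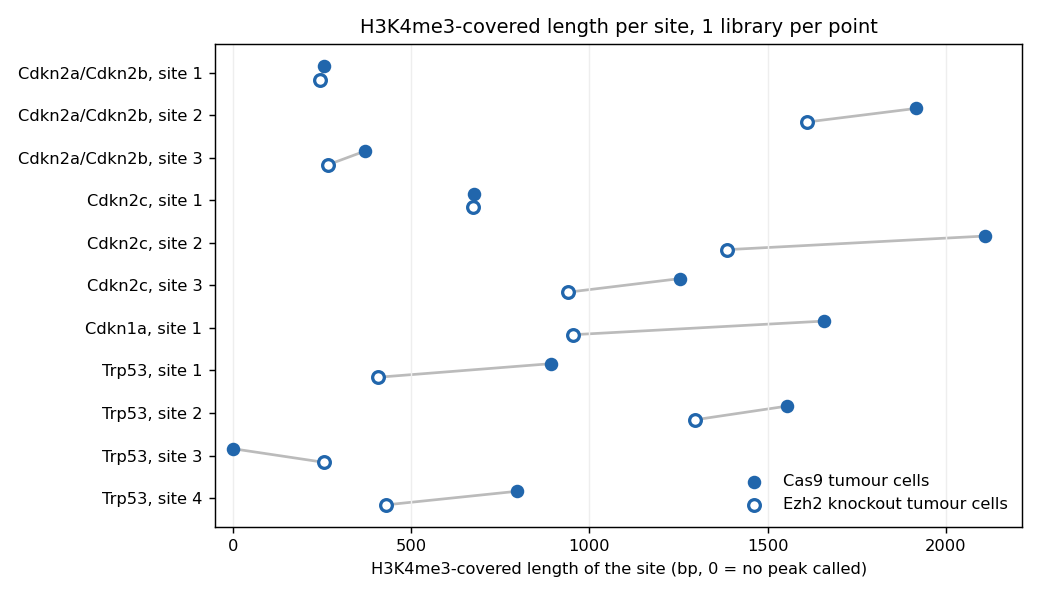
Length covered by H3K4me3 peaks (x axis, bp) at each of the 11 sites in Cas9 (filled) and Ezh2 knockout (open) tumour cells, 1 library each. The open point lies to the left at 10 sites, and Trp53 site 3 has a peak of 255 bp in the knockout alone.

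H3K27ac was shorter in the knockout at 4 of the 5 sites where both kinds of cell had it, against 37.1% of 6266 such sites in the series. The ratios were 0.61 at Trp53 site 2, 0.673 at Cdkn2c site 3, 0.715 at Trp53 site 1, 0.847 at site 2 of the Cdkn2a/Cdkn2b window and 1.28 at Cdkn2c site 2. Their median was 0.715, against 1.07 over the series. With lists of equal number Trp53 site 2 dropped out, 3 of 4 sites were shorter and the median was 0.781. Of the sites in the series, 3.27% had a ratio lower than Trp53 site 2 and 5.15% one lower than Cdkn2c site 3. Summed over the 11 sites, acetylated length was 3824 bp in Cas9 cells and 3730 bp in the knockout, a ratio of 0.975, and 507 bp of the knockout sum came from Cdkn2c site 1. Of the 9 Cas9 peaks 7 overlapped a knockout peak, against 91.4% of the list, and of the 8 knockout peaks 7 overlapped a Cas9 peak, against 71.9%.

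**Figure D4:**
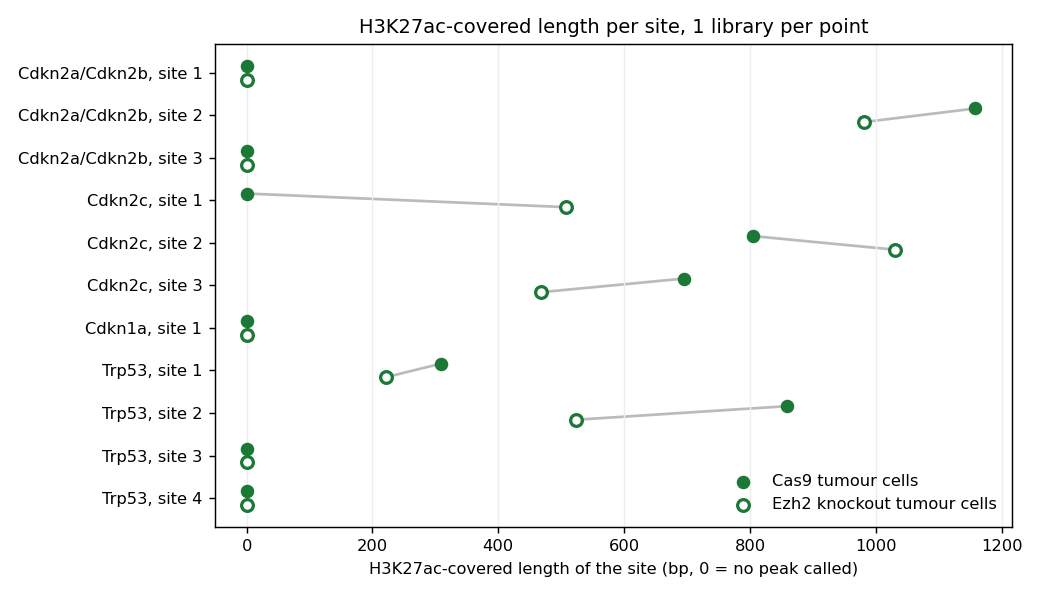
Length covered by H3K27ac peaks (x axis, bp) at each of the 11 sites in Cas9 (filled) and Ezh2 knockout (open) tumour cells, 1 library each; 0 means that no peak was called. Cdkn2c site 1 has 0 bp in Cas9 cells and 507 bp in the knockout, from 1 peak ranked 8879 of 10112 that drops out with lists of equal number. Of the 5 sites acetylated in both cells 4 are shorter in the knockout, and 3 of 4 with lists of equal number.

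The sites were also grouped by acetylation. Of the 10 sites with H3K4me3 in both kinds of cell, 5 had H3K27ac in both, against 58.9% in the series. H3K27ac was called in neither at 4, against 22.2%: sites 1 and 3 of the Cdkn2a/Cdkn2b window, the Cdkn1a site and Trp53 site 4. It was called in the knockout alone at 1, against 16.4%, and in Cas9 cells alone at 0, against 2.55%. Of the 13 H3K4me3 peaks of Cas9 cells 5 overlapped H3K27ac of the same cells, against 49.5%, and of the 14 knockout peaks 7 did, against 61.9%. With so few members these shares are a description of the windows and not of a class of genes.

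Gfi1 is a zinc finger repressor, and its antibody gave islands that covered 367.9 Mb in Cas9 neurospheres and 294.0 Mb in Suz12F2 neurospheres. The 4 windows held 12 islands of Cas9 neurospheres and 20 of Suz12F2 neurospheres, and 8 of each when islands within 5 kb of each other were merged. All 12 of the former overlapped the other list, against 76.1% of that list, and 17 of the 20 overlapped the former, against 81.4%. Of the 13 H3K4me3 peaks of Cas9 tumour cells, 11 lay in islands of Cas9 neurospheres, against 86.4% of all such peaks, and 13 in islands of Suz12F2 neurospheres, against 97.5%. The histone marks and the Gfi1 antibody were read in different cells, and no library of cells without Gfi1 was analysed here. Coverage of the Trp53 and Cdkn1a windows lay above the upper quartile of windows of their size, and that of the Cdkn2a/Cdkn2b and Cdkn2c windows lay within the quartiles.

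In the Trp53 window the islands covered 84.5% of the length in Cas9 neurospheres and 70.5% in Suz12F2 neurospheres. Both values lay above the upper quartile of 40 kb windows with tumour H3K4me3, 61% and 51%. The largest Cas9 island ran from 69356001 to 69400200, 44200 bp in all, and its score of 2561 ranked 186 of 63177. Sites 1 and 2 of Trp53 lie inside it. In Suz12F2 neurospheres the same stretch of the window was called as 4 islands, and the one over sites 1 and 2 ran from 69390401 to 69396000 with a score of 331, rank 6337 of 67079. Another Suz12F2 island, from 69356201 to 69381800, scored 1448 and ranked 370, but just 1800 bp of it lie in the window.

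The Cdkn1a window was covered to 62% and 52%, close to the upper quartiles of 61% and 51%. The island over the H3K4me3 site ran from 29225201 to 29238000 in Cas9 neurospheres, with a score of 630, rank 4173. In Suz12F2 neurospheres it ran from 29229801 to 29237800, with a score of 535, rank 2869. Of the island length in Cas9 neurospheres 80.6% was shared at Cdkn1a and 79.3% at Trp53, and of that in Suz12F2 neurospheres 96.2% and 95.0%. The shared length over the whole lists was not computed, so these shares have no background beside them.

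**Figure D5:**
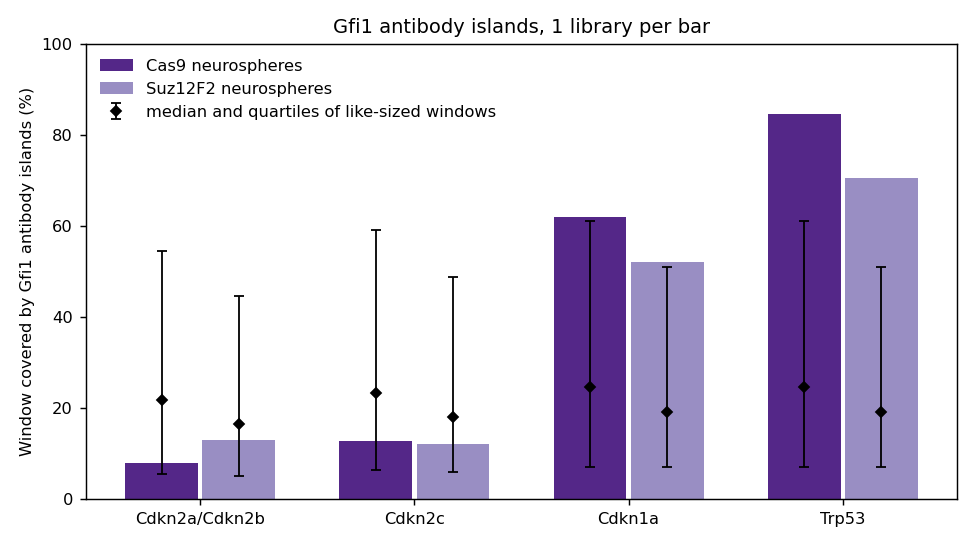
Share of each window covered by Gfi1 antibody islands (y axis, %) in Cas9 and Suz12F2 neurospheres (bars, 1 library each), with the median and quartiles (diamonds and lines) of all windows of that size that hold H3K4me3 of Cas9 tumour cells. Coverage is 84.5% and 70.5% at Trp53 and 8% and 13% at Cdkn2a/Cdkn2b.

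At Cdkn2c the islands covered 12.8% and 12%, where the medians for windows of 50 kb were 23.2% and 18%, and 37.0% and 40.8% of such windows had less. There were 3 islands in each list, 1 overlapping each tumour H3K4me3 site. Their scores were 151, 167 and 74 in Cas9 neurospheres, above 50.3%, 55.7% and 8.26% of that list. In Suz12F2 neurospheres they were 182, 203 and 136, above 76.3%, 79.8% and 65.0% of that list. The middle one, over site 2, had the highest score in both.

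The Cdkn2a/Cdkn2b window was the one where Suz12F2 neurospheres had more covered length, 10.4 kb against 6.4 kb in Cas9 neurospheres, a ratio of 1.63. Islands covered 8% of the window in Cas9 and 13% in Suz12F2 neurospheres. The medians for windows of 80 kb were 21.75% and 16.5%, and 30.8% and 44.8% of such windows had less. The ratios of the other windows were 0.938 at Cdkn2c, 0.839 at Cdkn1a and 0.834 at Trp53. Over the whole genome Suz12F2 neurospheres had less covered length, 294.0 Mb against 367.9 Mb. How many windows of 80 kb had more covered length in Suz12F2 neurospheres was not computed, so how unusual the 1.63 is stays unknown. All of the 6.4 kb was shared, and no such share of length was computed over the whole lists. The island over site 2 ran from 88939001 to 88942000 in both lists, with scores of 181, above 59.7% of the Cas9 list, and 233, above 83.5% of the Suz12F2 list. The 3 islands without a Cas9 partner ran from 88918201 to 88919800, from 88927601 to 88928400 and from 88956201 to 88957200, with scores of 67, 45 and 76. The last 2 cover sites 1 and 3, the H3K4me3 sites without H3K27ac. Of sites with H3K4me3 in both kinds of tumour cell, 12.1% lay in islands of Suz12F2 neurospheres alone, and of those without H3K27ac 12.4%. In the windows these were 2 of 10 sites, and the other 8 lay in islands of both neurospheres, against 86.6%. The 2 islands are low in their list, above 7.22% and 35.6% of it by score, and the Suz12F2 list holds more and shorter islands in general.

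The Cas9 antibody gave 0 islands in the 4 windows in all 3 lists, from U6, Suz12F1 and Suz12F2 neurospheres. The nearest island lay 75.6 kb after the Cdkn1a window, in Suz12F1 neurospheres, and the next 93.8 kb before the Trp53 window, in U6 neurospheres. Windows with tumour H3K4me3 and without a Cas9 antibody island made up 69.8% at 80 kb, 74.6% at 50 kb and 76.3% at 40 kb. The lists are short, with 2966, 916 and 1048 islands, so an empty window was the usual case. No Gfi1 antibody island of the windows overlapped a Cas9 antibody island.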

How the data were processed

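Lists of enriched regions from 11 libraries were used, and the 3 input libraries were not. The authors' build was mm9, and their tools included SICER 1.1, BWA 0.5.9-r26, R 2.14.0, SAMtools and Picard, per the submitters' processing notes, which give these names no role. The 7 lists of H3K27me3 and neurosphere libraries hold islands, runs of enriched windows, with a window of 200 bp, a gap of 600 bp and a false discovery rate of 0.00001 per the names of the deposited files. Their ends were raised by 1 bp. The 4 lists of H3K27ac and H3K4me3 hold peaks, and the sources used here do not name their caller. The deposited score of each region, whose meaning the files do not state, ranked regions within 1 list. Called regions hold no read counts, so a missing region means no call, and list length depends on depth and background.

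Overlap meant at least 1 bp. Counts were computed with Python 3.11.15 and numpy 2.4.6, tested on simulated data, and checked against bedtools 2.31.1 for 56 list pairs, of which 0 differed. Figures used matplotlib 3.10.9. Promoters and neighbours came from RefSeq tables of GRCm38.p6, whose coordinates were not joined to mm9. The named genes were the 5 members and their neighbours. A wider list of pathway genes was not analysed here for want of an mm9 annotation. Members, lists and rules were chosen with earlier results of these data known, and the sites, the background windows, the spacing of starts and the p53 decamer were added after the regions were seen. Alternatives were 50% of a region inside the window, the upper 50% of scores, lists of equal number, windows widened by 20 kb, islands merged within 5 kb, removal of Gfi1 islands that overlap a Cas9 antibody island and, added later, sites joined within 1 kb.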

Additional observations from a re-analysis of the deposited data

How the results depend on the processing

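For the 7 lists with a region in the windows, 23 of 33 recounts stayed within 1.5 times the reported number. With at least 50% of a region inside the window, 0 H3K27me3 islands of Cas9 cells remained in place of 1, and with lists of equal number also 0, while windows widened by 20 kb held 2. In the upper 50% of scores the windows held 2 H3K27ac peaks of Cas9 cells and 1 of the knockout, 4 H3K4me3 peaks of Cas9 cells and 6 of the knockout, and 13 Gfi1 antibody islands of Suz12F2 neurospheres. With lists of equal number, 5 H3K27ac peaks of the knockout remained. With islands merged within 5 kb, the windows held 8 islands in either Gfi1 list, in place of 12 in Cas9 and 20 in Suz12F2 neurospheres. For the 4 lists without a region, H3K27me3 of the knockout and the 3 Cas9 antibody lists, wider windows were the one alternative that could add a region, and with 20 kb more on each side the count was 0 in all 4.

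The median H3K4me3 ratio ranged from 0.722 to 0.736, and with sites joined within 1 kb all 9 sites were shorter in the knockout. In the upper 50% of scores it rested on 2 sites. The median H3K27ac ratio was 0.76 with sites joined within 1 kb, where 3 of 4 were shorter, 0.781 with equal numbers, and 0.985 in the upper 50% of scores, where it rested on 1 site. No paired analysis was possible because each group held 1 library. Depth is unknown, so a short or missing call cannot be told apart from a shallow library.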
